A study of Mus musculus with 16 samples.

Results

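The expression of 10 genes that receptor tyrosine kinases switch on through the kinase ERK was examined in mouse liver after FGFR4 knockdown (KD) on 2 diets. The genes were Dusp6, Dusp4, Spry2, Spry4, Spred1, Spred2, Etv5, Egr1, Fos and Jun. They were picked by symbol as transcriptional readouts of receptor signalling, and not by a rule on measured values. Earlier results of these data were known when they were picked. They are 10 of the 52143 genes in the count table, and 8 of them were among the 11324 genes abundant enough to be tested. Dusp4 and Spry2 were too low.

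The study used male C57BL6/J mice that were 6 weeks old when the diets began. For 12 weeks the food was chow or, in the other groups, a high-fat diet (HFD). Every 2 weeks the mice received either 3 mg/kg of an siRNA against Fgfr4, joined to N-acetylgalactosamine (GalNAc) so that hepatocytes take it up, or saline. This gave 4 groups of 4 libraries. Chow and HFD name the saline-injected groups, and Chow/FGFR4 KD and HFD/FGFR4 KD the groups given siRNA, with no gene deletion or transgene in any of them. The control was saline and not an siRNA without a target, so an effect of siRNA as such cannot be told apart from the loss of Fgfr4. The siRNA reaches hepatocytes, whereas the RNA came from whole liver tissue, and fewer cells of a type and less RNA per cell cannot be told apart in such samples. The mice were housed 4 to a cage, and how cages fell into groups is not given in the sources used here.

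ERK is the last kinase of a cascade that runs from an activated receptor through Ras and MEK. Active ERK drives transcription of genes that damp the cascade again. Dusp6 and Dusp4 encode phosphatases that remove the activating phosphates from ERK, Spry2 and Spry4 encode Sprouty proteins and Spred1 and Spred2 encode related proteins that restrain the cascade below the receptor, and Etv5 encodes an ETS transcription factor induced by FGF signalling. Egr1, Fos and Jun are immediate early genes, which growth factors but also stress and tissue handling induce within minutes. FGFR4, with its co-receptor beta-klotho, is the main FGF receptor of hepatocytes and carries the gut hormone FGF15 signal that restrains bile acid synthesis.

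Total counts ranged from 3445949 to 5976449 per library. Of these, the gene Gm42418 alone took 11.1 to 22.7%. Its share was 13.4 to 22.7% in Chow and 11.1 to 15.6% in HFD. The targeted gene followed the labels in every library. Fgfr4 stood at 27.9, 25.8, 36.3 and 28.9 CPM (counts scaled to library size) in Chow, and at 5.95, 6.17, 4.24 and 2.76 CPM in Chow/FGFR4 KD. It stood at 30.1, 28.6, 21.8 and 22.4 CPM in HFD, and at 2.82, 2.43, 5.31 and 4.40 CPM in HFD/FGFR4 KD. The KD groups did not overlap the saline groups, and the log2 change was -2.62 (SE 0.263) on chow and -2.78 (SE 0.270) on HFD. The summed level of 6 hepatocyte markers was high in every library, at 53668 to 75484 CPM. The libraries HFD/FGFR4 KD 1 and Chow/FGFR4 KD 4 stood apart in earlier results of these data, and results that rest on them are given with and without them.

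Dusp4 and Spry2 could not be measured reliably. Dusp4 had between 2 and 15 counts per library, a mean of 1.39 CPM, and fell below 1 CPM in 5 of the 16 libraries. Its levels were 1.23, 1.83, 1.01 and 0.947 CPM in Chow and 1.98, 2.06, 1.21 and 1.38 CPM in Chow/FGFR4 KD. They were 1.01, 0.817, 1.99 and 3.03 CPM in HFD and 1.08, 1.33, 0.830 and 0.518 CPM in HFD/FGFR4 KD. The groups overlapped throughout. Spry2 was lower still, with 1 to 8 counts per library, a mean of 0.781 CPM and 11 libraries below 1 CPM. In 8 libraries its count was no higher than 3, and so not told apart from a count of 0. Where a looser filter admitted them, the log2 change with KD on HFD was -0.59 for Dusp4 (adjusted p = 0.69 by limma-voom; -0.87 without HFD 2, adjusted p = 0.386) and 0.25 for Spry2 (adjusted p = 0.902). Neither was called in any comparison.

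Fos and Etv5 passed the filter but were thinly covered. Fos averaged 3.16 CPM with 2 to 43 counts per library, and its count was at or under 3 in 2 libraries, Chow 3 and HFD 2. Etv5 averaged 3.37 CPM with 4 to 30 counts. A sequence of 31 bases, the length on which transcript matching rests, is shared with another gene at 30.3% of the Etv5 positions, mostly with the pseudogene Gm4798, so that its counts are uncertain. The counts of Jun could include reads of the antisense gene Junos, which overlaps it, and those of Spry4 reads of Gm27369 and Gm27804, since how strand was handled in counting is not given in the sources used here. The shared share was 6.39% for Jun, 4.2% for Spred2 and at most 0.878% for the others.

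Compared per length of transcript, Dusp6 was the most abundant of the 10. Its mean over the 16 libraries was 12.3 CPM per kilobase, followed by Jun at 9.00 and Egr1 at 7.19 CPM per kilobase. A middle group of Spred2 at 2.27, Spred1 at 2.24 and Spry4 at 2.04 CPM per kilobase lay close together, and their ranges over libraries overlapped (1.57 to 4.13, 1.30 to 3.39 and 1.22 to 3.51 CPM per kilobase). Fos followed at 1.50, Etv5 at 0.848, Dusp4 at 0.508 and Spry2 at 0.374 CPM per kilobase. For scale, Fgfr4 itself averaged 4.81 CPM per kilobase. The ranges of the leading 3 genes overlapped as well, from 7.29 to 19.8 for Dusp6, from 4.81 to 16.4 for Jun and from 1.90 to 21.2 CPM per kilobase for Egr1.

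**Figure D1:**
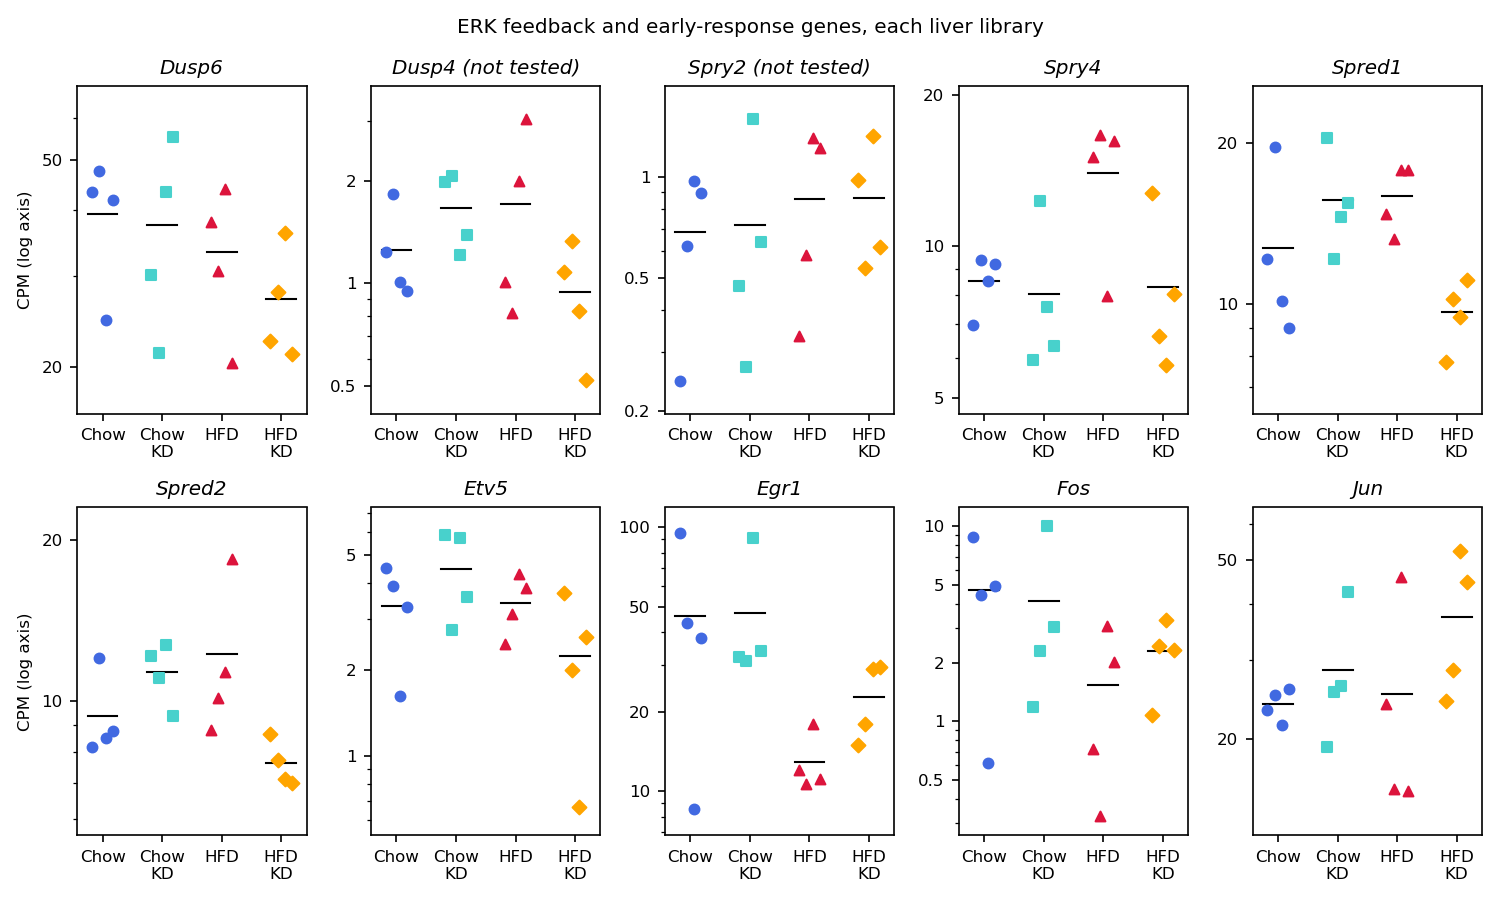
Level of each of the 10 genes in the 16 liver libraries, in CPM on a log axis, by group (KD, FGFR4 knockdown). Each point is 1 library and each bar the arithmetic mean of 4. Spred1 and Spred2 in HFD/FGFR4 KD lie below every HFD library, whereas Egr1 spreads from 8.52 to 94.9 CPM within Chow alone.

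The genes lie on separate chromosomes apart from Egr1 and Spry4. In the build GRCm38, Dusp6 spans chr10:99263231-99267489, Spred1 chr2:117121374-117182279 and Spred2 chr11:19924375-20024026. Etv5 lies on the reverse strand at chr16:22381309-22439719, Jun on the reverse strand at chr4:95049034-95052222 and Fos on the forward strand at chr12:85473890-85477273. The upstream sequences of Spred1, Jun and Fos are shown because they represent the feedback gene that changed with FGFR4 KD and the pair of early genes that form AP-1. Each is the 250 bases before the RefSeq transcription start (GRCm38.p6), written 5′ to 3′ on the strand of the gene, at chr2:117120821-117121070 (+), chr4:95052223-95052472 (-) and chr12:85473640-85473889 (+). Capitals mark matches, on either strand, to the core of the cAMP response element (TGACG), to the AP-1 site variant known from the Jun promoter (TGACATCA), to the GC box (GGGCGG) and to the motif of the TBP factor (TATAAA).
Spred1: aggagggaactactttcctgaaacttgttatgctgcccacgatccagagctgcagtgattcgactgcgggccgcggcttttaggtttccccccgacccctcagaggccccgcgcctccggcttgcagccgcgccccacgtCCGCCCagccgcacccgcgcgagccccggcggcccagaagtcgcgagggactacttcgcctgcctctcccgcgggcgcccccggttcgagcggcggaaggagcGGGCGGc
Jun: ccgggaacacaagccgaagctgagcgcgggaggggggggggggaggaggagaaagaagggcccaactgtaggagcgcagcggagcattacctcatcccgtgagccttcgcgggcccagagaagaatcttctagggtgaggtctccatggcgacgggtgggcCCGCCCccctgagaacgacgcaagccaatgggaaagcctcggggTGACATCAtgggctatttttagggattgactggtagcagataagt
Fos: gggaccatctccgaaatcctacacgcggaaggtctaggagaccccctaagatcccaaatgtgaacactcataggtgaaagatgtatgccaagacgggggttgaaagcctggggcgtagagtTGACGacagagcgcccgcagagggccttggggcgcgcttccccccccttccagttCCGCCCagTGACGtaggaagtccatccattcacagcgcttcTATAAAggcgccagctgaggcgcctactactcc

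The Fos window held TGACG at 129 to 125 and at 66 to 62 bases before the start, GGGCGG on the opposite strand at 74 to 69 and TATAAA at 33 to 28. The Jun window held TGACATCA at 45 to 38 and GGGCGG on the opposite strand at 89 to 84. The Spred1 window held GGGCGG at 110 to 105 on the opposite strand and at 7 to 2. These positions count from the RefSeq start. The Spred1 window ends at chr2:117121070, upstream of the gene span given above, which begins at 117121374. The windows of Fos and Jun adjoin their gene spans. Of windows not printed, that of Spred2 held TGACG and GGGCGG. Etv5 had 2 windows, of which 1 held GGGCGG at 3 places. The other Etv5 window and those of Dusp6 and Spry2 held none of the 7 motifs searched. Among 32851 RefSeq promoter windows of the same length, TGACG was found in 17.8%, TGACATCA in 2.93%, GGGCGG in 32.7% and TATAAA in 12.4%. A CArG box (1.47% of windows), TGANTCA (6.75%) and CCGGAAG, an ETS motif (6.91%), were searched on both strands as well and were not found in the windows of the 7 genes with an entry, which were these 3 and Dusp6, Spry2, Spred2 and Etv5. No 2 of these motifs overlap in the 3 printed windows. A match is a run of letters and not a measured binding site. Bases further upstream than these 250 were not searched, so a motif there would have been missed.

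The first comparison asked whether FGFR4 KD on HFD changed these readouts. Spred1 fell, and it was the only member to pass the study's threshold of p under 0.05 with an adjusted p under 0.25. All 5 feedback genes tested (Dusp6, Spry4, Spred1, Spred2 and Etv5) had a negative log2 change, with a median of -0.71, and all 3 early genes had a positive one, with a median of 0.79. The median over all genes was 0.00 and 50.7% of them were higher. Thus 1 of 8 members was called, where 3.14% of all tested genes were. At an unadjusted p under 0.05 by limma-voom were 3 of 8 members and 1244 of all 11324 genes. None had an adjusted p under 0.05.

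Spred1 stood at 14.7, 13.2, 17.8 and 17.8 CPM in HFD and at 7.80, 10.2, 9.46 and 11.1 CPM in HFD/FGFR4 KD. Every KD library lay below every saline library. The log2 change was -0.71 (SE 0.210, 95% interval -1.16 to -0.27, adjusted p = 0.196 by limma-voom), or 0.610 times the HFD level. Spred2, its paralogue, stood at 8.79, 10.1, 11.3 and 18.4 CPM in HFD and at 8.67, 7.75, 7.14 and 7.00 CPM in HFD/FGFR4 KD. Its groups did not overlap either, although the gap between 8.67 and 8.79 CPM was narrow. Its log2 change was -0.57 (SE 0.206, 95% interval -1.01 to -0.14, adjusted p = 0.303 by limma-voom) and was not called. It passed the threshold without HFD 1 (-0.72, adjusted p = 0.229 by limma-voom) or HFD 2 (-0.63, adjusted p = 0.238), and by DESeq2 (-0.66, adjusted p = 0.208). Without HFD 4, the library at 18.4 CPM, it was -0.39, and its adjusted p reached 0.531 without HFD/FGFR4 KD 3. Groups that do not overlap were found for 2 of 8 members and for 6.49% of all tested genes.

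The call for Spred1 rested on few libraries. It was lost without HFD 1 (adjusted p = 0.273), HFD 3 (0.434), HFD 4 (0.291), HFD/FGFR4 KD 1 (0.426), HFD/FGFR4 KD 3 (0.383) or HFD/FGFR4 KD 4 (0.322), with log2 changes between -0.79 and -0.62 over all 16 fits that left out 1 library. Without both libraries that stood apart the log2 change was -0.62 (adjusted p = 0.385 by limma-voom).

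Spry4, the Sprouty gene that could be measured, stood at 15.1, 16.7, 7.97 and 16.2 CPM in HFD and at 12.8, 6.64, 5.81 and 8.03 CPM in HFD/FGFR4 KD. HFD 3 was at the level of the KD group, and HFD/FGFR4 KD 1 was above the rest of it, so the groups overlapped. The log2 change was -0.76 (SE 0.277, adjusted p = 0.303 by limma-voom). Without HFD 3 it was -1.02 and passed the threshold (adjusted p = 0.142 by limma-voom), and without both libraries that stood apart it was -0.99 (adjusted p = 0.255).

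Dusp6, an ERK phosphatase widely used as a readout of FGF signalling, did not pass the test. It stood at 38.0, 30.6, 44.0 and 20.4 CPM in HFD and at 22.5, 27.9, 36.2 and 21.2 CPM in HFD/FGFR4 KD. The groups overlapped almost fully, and the log2 change was -0.27 with a 95% interval from -0.89 to 0.35 (adjusted p = 0.793 by limma-voom). Etv5 stood at 2.45, 3.11, 4.29 and 3.84 CPM in HFD and at 3.69, 1.99, 0.664 and 2.59 CPM in HFD/FGFR4 KD. Its log2 change of -0.85 (SE 0.445, adjusted p = 0.509 by limma-voom) was carried mostly by HFD/FGFR4 KD 3, and it was -0.28 without that library.

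The 3 early genes were each higher on average in HFD/FGFR4 KD than in HFD, and none passed the test. Egr1, a zinc finger transcription factor, stood at 12.0, 10.6, 17.9 and 11.1 CPM in HFD and at 15.0, 17.9, 28.9 and 29.5 CPM in HFD/FGFR4 KD. Its log2 change was 0.79 (SE 0.615, adjusted p = 0.7 by limma-voom). Jun, an AP-1 subunit, stood at 23.9, 15.5, 45.8 and 15.3 CPM in HFD and at 24.3, 28.5, 52.3 and 44.6 CPM in HFD/FGFR4 KD. Its log2 change was 0.64 (SE 0.310, adjusted p = 0.467), and HFD 3 lay above most of the KD libraries. Fos, the partner of Jun in AP-1, stood at 0.720, 0.327, 3.07 and 2.02 CPM in HFD and at 1.08, 2.43, 3.32 and 2.33 CPM in HFD/FGFR4 KD. Its 95% interval ran from -0.94 to 2.84 around a log2 change of 0.95, which was 0.44 without HFD 2 and 1.42 without HFD 3.

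**Figure D2:**
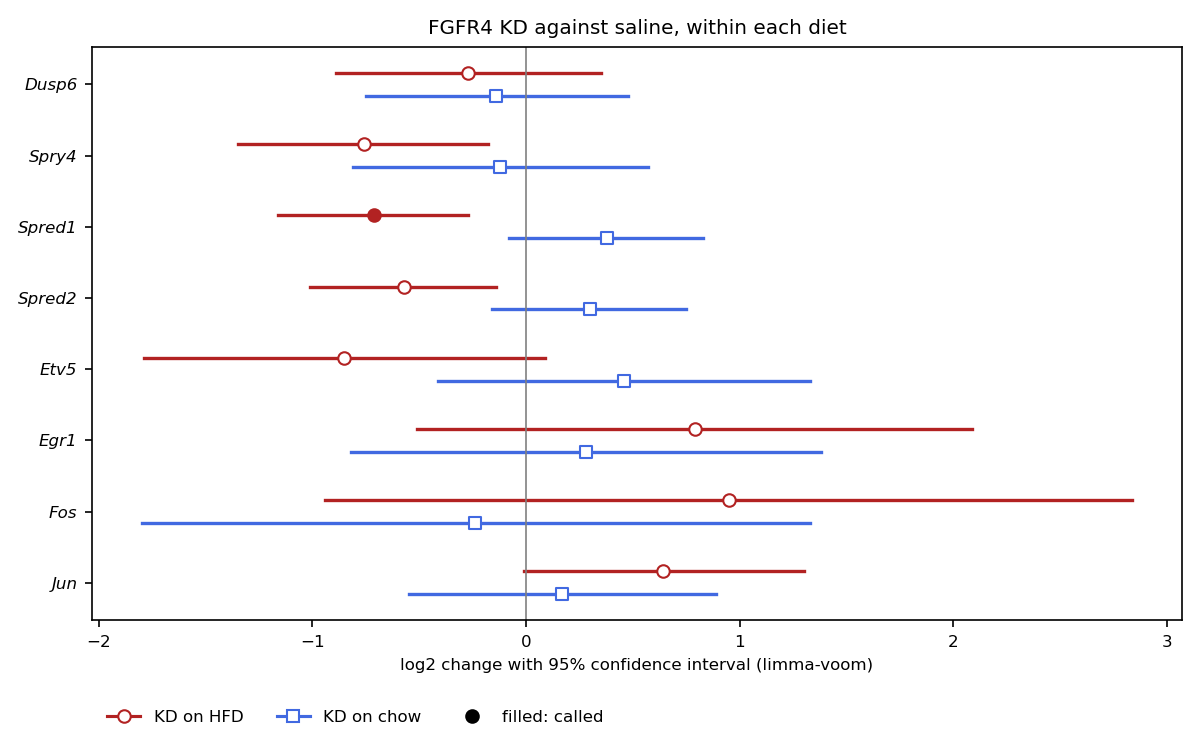
Log2 change with FGFR4 KD on HFD (circles) and on chow (squares) for the 8 genes tested, with 95% confidence intervals from limma-voom. Filled symbols passed the threshold. Spred1 on HFD (-0.71) is the single filled symbol, and the intervals of Egr1 and Fos are the widest.

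On chow, where Fgfr4 fell by 2.62 on the log2 scale, 0 of 8 members were called by limma-voom, edgeR or DESeq2, and 0 of 8 had an unadjusted p under 0.05. Of all genes tested, 0.00883% were called, and this was Fgfr4. By limma-voom 519 of the 11324 genes had an unadjusted p under 0.05. No member had groups that did not overlap, against 2.52% of all tested genes. Spred1 stood at 12.1, 19.6, 10.1 and 9.00 CPM in Chow and at 20.4, 12.1, 14.5 and 15.4 CPM in Chow/FGFR4 KD, with a log2 change of 0.38 and a 95% interval from -0.08 to 0.83. Spred2 stood at 8.20, 12.0, 8.52 and 8.76 CPM in Chow and at 12.1, 11.0, 12.7 and 9.37 CPM in Chow/FGFR4 KD, with a log2 change of 0.30 (95% interval -0.16 to 0.75). The groups overlapped for both genes. The log2 change was -0.14 for Dusp6 (95% interval -0.75 to 0.48), -0.12 for Spry4 (95% interval -0.81 to 0.57), 0.46 for Etv5 (95% interval -0.41 to 1.33) and 0.17 for Jun (95% interval -0.55 to 0.89). Fos could have changed by anything between -1.80 and 1.33 and Egr1 between -0.82 and 1.38 on the log2 scale, so moderate changes in these genes could not have been seen.

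The difference between the KD effects on the 2 diets was tested itself. It was not called for any member by limma-voom, edgeR or DESeq2, and 0.0353% of all genes passed. At an unadjusted p under 0.05 by limma-voom there were 3 of 8 members and 765 of all 11324 genes. The Spred1 effect was lower on HFD than on chow by a log2 difference of -1.09 (SE 0.300, adjusted p = 0.546 by limma-voom), the 43rd smallest p of 11324 genes. The difference was -0.87 (SE 0.297, adjusted p = 0.592 by limma-voom) for Spred2 and -1.32 (SE 0.607, adjusted p = 0.73 by limma-voom) for Etv5, which was -0.74 without HFD/FGFR4 KD 3. Leaving out Chow 2, the Chow library with the highest Spred1, brought the Spred1 difference to -1.29 and past the threshold (adjusted p = 0.241 by limma-voom). Averaged over both diets, 0 of 8 members were called by limma-voom, edgeR or DESeq2, against 0.486% of all genes by limma-voom. An unadjusted p under 0.05 by limma-voom was found for 0 of 8 members and 1006 of all 11324 genes. The average was 0.53 for Egr1, which was 0.19 without Chow 3, and that of Spry4 was -0.44 (95% interval -0.89 to 0.01).

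The effect of the HFD was examined under saline and under FGFR4 KD. The difference between these diet effects is the same contrast as that between the KD effects, for which no member was called. The comparison in saline-injected mice shares its HFD libraries with that of KD on HFD. They enter with opposite signs, so opposite changes in both comparisons are not independent, for members and listed genes alike. In saline-injected mice Spry4 rose and Egr1 fell, which makes 2 of 8 members called against 26% of all tested genes. No member had groups that did not overlap, against 16.1% of all genes. Spry4 stood at 6.97, 9.39, 8.52 and 9.23 CPM in Chow and at 15.1, 16.7, 7.97 and 16.2 CPM in HFD. It was clearly higher in HFD 1, 2 and 4 and not in HFD 3. The log2 change was 0.65 (SE 0.276, adjusted p = 0.146 by limma-voom). The call was lost without Chow 1 (adjusted p = 0.318), Chow 3 (0.201), HFD 1 (0.265), HFD 2 (0.244) or HFD 4 (0.239), where values under 0.25 came with an unadjusted p above 0.05, and the log2 change ran from 0.54 to 0.91 over the 16 fits.

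Egr1 stood at 94.9, 43.3, 8.52 and 38.1 CPM in Chow and at 12.0, 10.6, 17.9 and 11.1 CPM in HFD. Chow 1, 2 and 4 were above every HFD library, and Chow 3 was below all of them. The log2 change was -1.40 (SE 0.587, adjusted p = 0.142 by limma-voom). Without Chow 1 the log2 change was -0.86 (adjusted p = 0.369 by limma-voom), and without Chow 3 it was -2.10 (adjusted p = 0.00626). The call was also lost without Chow 2 (0.252), Chow 4 (0.219), HFD 1 (0.238), HFD 2 (0.212) or HFD 4 (0.214), all but the first of these by an unadjusted p above 0.05. Fos was likewise highest in Chow 1 and lowest in Chow 3, at 8.82, 4.43, 0.609 and 4.97 CPM in Chow against 0.720, 0.327, 3.07 and 2.02 CPM in HFD. Its log2 change of -1.51 was not called by limma-voom (SE 0.842, 95% interval -3.29 to 0.27). It was called by edgeR (-1.62, adjusted p = 0.159) and DESeq2 (-1.62, adjusted p = 0.134), and by limma-voom without Chow 3 (-2.36, adjusted p = 0.0312). Spred1 (0.39) and Spred2 (0.31) were not called, but Spred1 was without Chow 2 (0.58, adjusted p = 0.0793 by limma-voom) or HFD 2 (0.47, adjusted p = 0.167), and Spred2 without HFD 1 (0.45, adjusted p = 0.187). At the other end, Spred1 was 0.26 without Chow 4 (adjusted p = 0.482 by limma-voom) and Spred2 was 0.12 without HFD 4 (adjusted p = 0.676). The log2 change was -0.05 for Jun (95% interval -0.74 to 0.65), with a sign that differed between settings, and -0.23 for Dusp6 (95% interval -0.82 to 0.37).

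In FGFR4 KD mice the HFD groups were lower for Spred1, Spred2 and Etv5. These 3 of 8 members were called, against 20.2% of all tested genes, and none at an adjusted p under 0.05. Spred1 fell by 0.70 on the log2 scale (SE 0.223, adjusted p = 0.0938 by limma-voom), from 12.1 to 20.4 CPM in Chow/FGFR4 KD to 7.80 to 11.1 CPM in HFD/FGFR4 KD. It kept its call in each of the 16 fits without 1 library and without both libraries that stood apart (log2 change -0.62, adjusted p = 0.204 by limma-voom). Spred2 fell by 0.56 (SE 0.221, adjusted p = 0.166 by limma-voom), and Etv5 fell by 1.23 (SE 0.457, adjusted p = 0.145 by limma-voom). Spred2 lost its call without Chow/FGFR4 KD 1, Chow/FGFR4 KD 3, HFD/FGFR4 KD 2, HFD/FGFR4 KD 3 or HFD/FGFR4 KD 4, with adjusted p = 0.267, 0.265, 0.26, 0.311 and 0.303. It was also lost with library totals alone (-0.40, adjusted p = 0.315 by limma-voom) and with no filter (adjusted p = 0.269). Etv5 lost it without Chow/FGFR4 KD 1 (-1.05, adjusted p = 0.269) or HFD/FGFR4 KD 3 (-0.65, adjusted p = 0.423). Groups did not overlap for Spred1, Spred2 and Egr1, or 3 of 8 members, against 11.5% of all genes. Egr1 was at 31.1 to 91.1 CPM in Chow/FGFR4 KD and at 15.0 to 29.5 CPM in HFD/FGFR4 KD, yet its log2 change of -0.89 (95% interval -2.06 to 0.27) was not called (it was without Chow 3, adjusted p = 0.185 by limma-voom). Jun, at 0.43 in the full fit, was called higher without both libraries that stood apart (0.82, adjusted p = 0.191). This comparison shares the HFD/FGFR4 KD libraries with that of KD on HFD, so the Spred1 and Spred2 values of both rest on the same 4 low libraries.

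**Figure D3:**
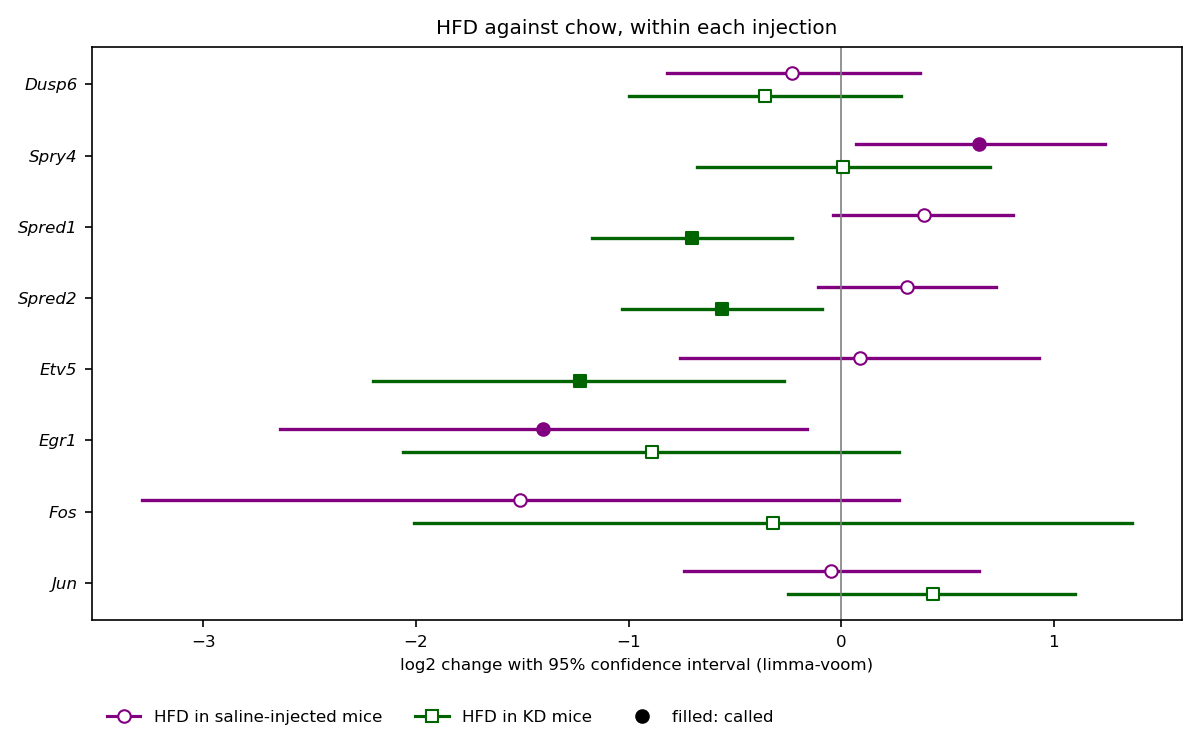
Log2 change between HFD and chow in saline-injected mice (circles) and in FGFR4 KD mice (squares) for the 8 genes tested, with 95% confidence intervals from limma-voom. Filled symbols passed the threshold. Spry4 (0.65) and Egr1 (-1.40) are filled in saline-injected mice, and Spred1, Spred2 and Etv5 in FGFR4 KD mice.

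Mice of the same group differed widely in the early genes. The within-group SD of log2 CPM was 1.06 for Fos and 0.86 for Egr1, which placed them at percentiles 99.0 and 98.1 of all tested genes. It was 0.58 for Etv5, 0.51 for Jun, 0.47 for Dusp6 and 0.42 for Spry4, at percentiles 93.0, 89.0, 85.6 and 80.6. Spred1 and Spred2 varied least, with SDs of 0.32 and 0.28 at percentiles 65.5 and 57.2. Counting error is larger at the low counts of Fos and Etv5 than for the other members tested. Egr1, with 42 to 463 counts per library, reached an 11.1-fold range within Chow.

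Egr1 and Fos rose and fell together from mouse to mouse. After each group was centred on its mean, their log2 CPM had a Pearson r of 0.87 over 16 libraries, and 0.88 without centring. The libraries Chow 1 and Chow/FGFR4 KD 3 were highest for both, at 94.9 and 91.1 CPM for Egr1 and at 8.82 and 9.99 CPM for Fos, although 1 received saline and the other siRNA. Dusp6 followed them less closely, with a centred r of 0.54 with Egr1 and 0.51 with Fos, and its highest r was 0.63 with Jun. Spry4 ran against them, with -0.61 for Jun and -0.59 for Dusp6. Spred1 and Spred2 had a centred r of 0.43 and of 0.71 across all libraries, the latter including the group differences described above. These values are descriptions over libraries that share their depth and tissue, and no test was made of them.

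**Figure D4:**
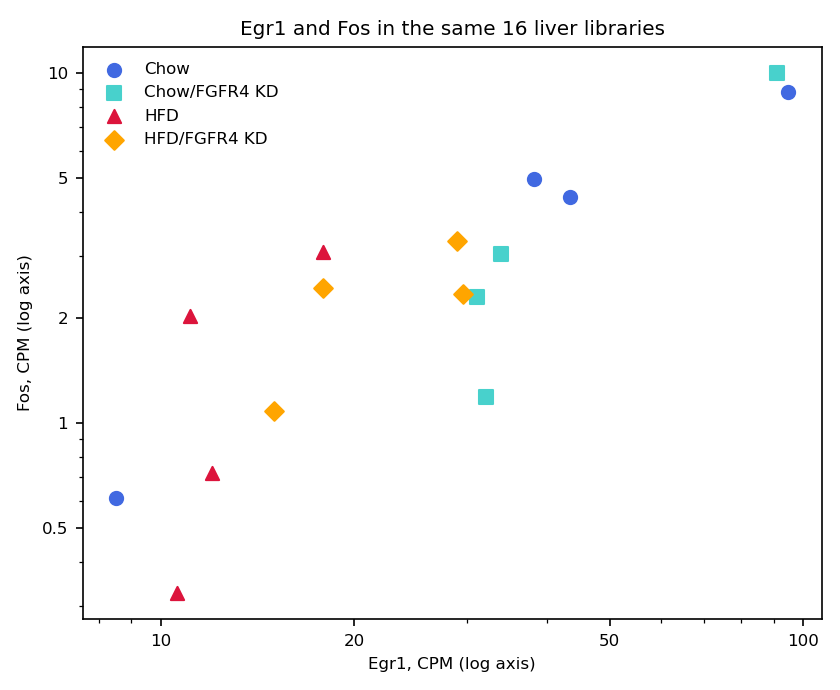
Fos against Egr1 in the 16 liver libraries, both in CPM on log axes, with 1 point per library and the 4 groups by colour and shape. Libraries high for one gene are high for the other (r = 0.88 on the log2 scale), and Chow spans nearly the whole range.

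The genes of the cascade itself showed little change with KD on HFD. The list held 24 genes, from the receptor to ERK and the RSK kinases that ERK activates. Of these, 23 were tested and 1 was called, and none of those from receptor to ERK was. The called gene was Rps6ka1, which encodes the ERK-activated kinase RSK1 and so lies below ERK. It stood at 16.1, 10.6, 19.2 and 14.5 CPM in HFD and at 3.69, 8.19, 10.6 and 7.77 CPM in HFD/FGFR4 KD, a log2 change of -1.03 (SE 0.257, adjusted p = 0.109 by limma-voom). Without both libraries that stood apart it was -0.72 and not called (adjusted p = 0.267). The median of the 23 was 0.03, against 0.00 for all genes. Klb, the beta-klotho co-receptor, had a mean of 26.4 CPM in HFD and 27.9 CPM in HFD/FGFR4 KD and was not called. On chow 0 of 23 were called by limma-voom and 0 of 23 had an unadjusted p under 0.05. The HFD in saline-injected mice raised Rps6ka1 (0.93) and Mapk3 (0.51), which encodes ERK1, and lowered Sos1 (-0.48) and Frs2 (-0.31) on the log2 scale. In FGFR4 KD mice Klb rose by 0.56 on the log2 scale with HFD, and Ptpn11 (-0.21), Sos1 (-0.23) and Nf1 (-0.38) fell, but of these only Klb was called without both libraries that stood apart.

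Among other known ERK targets and feedback genes, 7 of 17 listed were abundant enough to test. With KD on HFD, 1 rose and 6 were not called by limma-voom, and the median was 0.04. The riser was Errfi1, an inhibitor of the EGF receptor, which went from 566 to 821 CPM in HFD to 848 to 1014 CPM in HFD/FGFR4 KD with no overlap (log2 change 0.41, SE 0.128, adjusted p = 0.218 by limma-voom). It moved against Spred1, and was not called without both libraries that stood apart (0.36, adjusted p = 0.328). Not called were Dusp7 (-0.42), Spry1 (0.04), Phlda1 (-0.61), Ccnd1 (0.42), Epha2 (0.59) and Myc (-1.12). The HFD in saline-injected mice raised Ccnd1 (1.46), the cyclin of G1 phase, and Dusp7 (0.71), and lowered Errfi1 (-0.57). In FGFR4 KD mice it raised Ccnd1 (1.44) and Epha2 (1.24) and lowered Phlda1 (-1.67) and Errfi1 (-0.33), where the call for Errfi1 was lost without both libraries that stood apart.

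Other early-response genes were followed by a list of 28, of which 21 were tested. With KD on HFD 1 of 21 rose and 20 were not called by limma-voom, 17 of 21 had a positive change and their median was 0.28, against 0.00 over all genes. Zfp36, which encodes an RNA-binding protein that destabilises cytokine mRNAs, stood at 79.5, 52.7, 56.1 and 52.4 CPM in HFD and at 101, 84.6, 156 and 142 CPM in HFD/FGFR4 KD, with no overlap (log2 change 0.98, SE 0.295, adjusted p = 0.203 by limma-voom). Without both libraries that stood apart it was 1.06 and not called (adjusted p = 0.27). On chow 0 of 21 were called by limma-voom, 16 of 21 had a positive change and their median was 0.46. At an unadjusted p under 0.05 by limma-voom were 6 of 21, against 519 of all 11324 genes. Without Chow/FGFR4 KD 4 the median was 0.26, with 2 of 21 at an unadjusted p under 0.05. The HFD in saline-injected mice lowered 5 of 21, among them Gadd45g (-1.65), Dusp1 (-1.10), Zfp36 (-0.97) and Ier2 (-0.49), and raised Klf6 (1.15) and Maff (1.02). Dusp1 encodes the phosphatase MKP-1 and was at 32.9 to 71.0 CPM in Chow and 11.4 to 43.6 CPM in HFD. In FGFR4 KD mice the HFD lowered 4 of 21 and raised 1, where 20.2% of all tested genes were called. It lowered Gadd45g (-3.09), Socs3 (-1.66), Junb (-1.19) and Fosl2 (-1.01) and raised Ccn1 (1.55). All but Junb were called without both libraries that stood apart, and without Chow/FGFR4 KD 4 alone only Gadd45g and Ccn1 were.

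Of 12 other receptor tyrosine kinases tested, 0 were called with KD on either diet by limma-voom, with 1 of 12 at an unadjusted p under 0.05 on HFD and 0 of 12 on chow. The HFD in saline-injected mice lowered Egfr (-1.85) and Fgfr1 (-0.73) and raised Axl (1.20), Pdgfrb (0.79), Fgfr3 (0.71) and Pdgfra (0.70) on the log2 scale. Egfr, the EGF receptor of hepatocytes, went from 430 to 1067 CPM in Chow to 125 to 485 CPM in HFD. Under FGFR4 KD the HFD lowered Egfr (-1.11) and 0 of the other 11 were called by limma-voom. Without both libraries that stood apart Egfr, Kdr and Axl were called, and without Chow/FGFR4 KD 4 alone only Kdr was.

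Several other measures were set beside the members in the same contrasts. With KD on HFD the summed level of 5 adipocyte markers, of which 2 passed the filter and 1 was at 0 in all libraries, was 36.6 to 96.6 CPM in HFD and 9.32 to 31.2 CPM in HFD/FGFR4 KD. Cidec, a lipid droplet gene, and Cfd made up nearly all of it, with means of 46.8 and 17.5 CPM in HFD and of 10.5 and 5.74 CPM in HFD/FGFR4 KD. The defining adipocyte genes Adipoq, Plin1 and Lep averaged 0.0383, 0 and 0 CPM in HFD. The sum of 7 stellate cell and fibroblast markers was 146 to 269 CPM and 102 to 174 CPM, and that of 8 endothelial markers 153 to 178 CPM and 122 to 157 CPM. Both of these sums overlapped between the groups, and no gene of either list was called. The heat shock gene Hspa1b rose from 19.4 to 63.4 CPM to 46.3 to 147 CPM (log2 change 1.58, adjusted p = 0.21 by limma-voom), and 1 of 6 heat shock genes was called, or 0 of 6 without both libraries that stood apart (Hspa1b 1.39, adjusted p = 0.374). Of 13 clock genes 3 rose, namely Arntl (1.55), Nfil3 (1.16) and Clock (0.53), and 2 fell, namely Dbp (-1.09) and Per2 (-0.85), of which Arntl, Nfil3 and Per2 were called without both libraries that stood apart. Of 8 acute-phase genes 0 were called with KD on HFD by limma-voom, 0 had an unadjusted p under 0.05, and their median was 0.16. With KD on chow 0 of these 6 heat shock, 13 clock and 8 acute-phase genes were called by limma-voom, with 0, 2 and 0 at an unadjusted p under 0.05, and the acute-phase median was 1.41. That median was 0.36 without Chow/FGFR4 KD 4, where the serum amyloid genes Saa1 and Saa2 stood at 2677 and 2378 CPM against at most 306 and 118 CPM in the rest of its group. With HFD in saline-injected mice 4 of 6 heat shock genes fell, with a median of -0.88, and 11 of 13 clock genes were called. Of 8 acute-phase genes 1 rose (Orm2, 1.79) and 1 fell (Fgb, -0.68), and 3 rose and 2 fell without both libraries that stood apart. The sum of 8 macrophage markers was 52.7 to 61.3 CPM in Chow and 96.9 to 179 CPM in HFD. That of the stellate cell and fibroblast markers was 93.1 to 122 CPM and 146 to 269 CPM, and that of the adipocyte list 1.84 to 25.4 CPM and 36.6 to 96.6 CPM, and none of these 3 sums overlapped. With HFD in FGFR4 KD mice the macrophage sum was 65.1 to 87.9 CPM in Chow/FGFR4 KD and 81.5 to 153 CPM in HFD/FGFR4 KD, and that of stellate cell and fibroblast markers 72.5 to 118 CPM and 102 to 174 CPM. In this comparison 4 of 6 heat shock genes fell (1 of 6 without Chow/FGFR4 KD 4) and 12 of 13 clock genes were called. The share of all tested genes called in it was 20.2%. Sums of 5 cholangiocyte markers overlapped between all groups, and those of 5 lymphocyte markers lay between 2.97 and 8.03 CPM. None of 4 neutrophil markers passed the filter, and their sum was at most 3.58 CPM. The part of these cell type, heat shock, clock and acute-phase measures in the values of the members was not tested.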

How the data were processed

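RNA was measured in 16 mouse liver libraries. The authors trimmed reads with fastp, quantified them with kallisto against GRCm38 and summed them to genes with tximport. The deposited values are estimated counts per gene and not normalized (7.85 to 11.1% of values not whole). The labels name a poly(A) library kit and the methods a targeted assay, and which was used is not settled here. Counts were analysed as the methods state, with trimmed mean of M-values factors (edgeR 4.0.16) and limma-voom 3.58.1 in R 4.3.3. Genes under 1 CPM in more than 4 libraries were dropped, which takes the wording of the methods literally. Fewer genes passed than the paper reports for liver, and more were called with KD on HFD, so its fit was not reproduced exactly. With 1 CPM required in at least 4 libraries, 12985 genes were tested, nearer the paper's number. With KD on HFD 360 of these were called. That filter admits Dusp4 and Spry2. A gene was called at p under 0.05 and a Benjamini-Hochberg adjusted p under 0.25, over all 11324 genes and with 1 fit of all 4 groups. Counts were rounded for DESeq2 1.42.0 and not for edgeR's quasi-likelihood test. CPM used effective library sizes, and log2 CPM for SDs and correlations had a prior count of 2. At these depths 3 counts equal 0.432 to 0.908 CPM, which covers counting error only.

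The members and gene lists were chosen with earlier results of these data known. The text names all members, Fgfr4 and Klb, and at most 6 called genes of each list per comparison, by p, except for 1 gene that is not reported here. Clock genes beyond these are given as counts, and Dusp7, Spry1, Phlda1, Ccnd1, Epha2 and Myc in KD on HFD complete a list and were named after their values were seen. No replicate was a copy of another, since counts in pairs within a group differed by a chi-square of 7.59 to 72.6 per degree of freedom over 7405 genes. The labels number the libraries without naming animals. The paper states that a column of its expression heatmaps is 1 mouse, with n = 4, so p-values measure the spread between mice. Gene names came from GENCODE M21 (98.3% of IDs) and promoters from RefSeq. The gene lists were also recomputed without Chow/FGFR4 KD 4, HFD/FGFR4 KD 1 or both, an alternative chosen after seeing the data. The code was tested on simulated counts.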

Additional observations from a re-analysis of the deposited data

Results flagged for a closer look

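In 2 of the 32 sets of 4 libraries examined (8 genes in 4 groups), 1 library stood far from the other 3, with Dixon's ratio past its 95% critical value. Chance gives about 1.6 such sets. Spry4 was at 7.97 CPM in HFD 3, where the other HFD libraries were at 15.1 to 16.7 CPM, with a ratio of 0.867. The same library had the highest Jun (45.8 CPM) and Dusp6 (44.0 CPM) of its group. Egr1 was at 91.1 CPM in Chow/FGFR4 KD 3, where the others were at 31.1 to 33.9 CPM, with a ratio of 0.920. Fos was also highest there, at 9.99 CPM. Spry4 in HFD 3 bears on the HFD comparisons, since the log2 change with KD on HFD was -0.76 with it and -1.02 without it.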

How the results depend on the processing

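With KD on HFD the count of members called, 1 as reported, was 2 by DESeq2 (Spred1 and Spred2), 3 with library quality weights (Spry4, Spred1 and Spred2), and 0 with the replicate block, without both libraries that stood apart, or at an adjusted p under 0.05. Deviations of same-numbered libraries from their group means had an r from -0.29 to 0.24, over 0.1 in 7 of 24 pairs. Such values cannot exclude a weak pairing by number, so the block was kept as an alternative. With HFD in saline-injected mice the count was 2, rose to 4 with library totals alone and was 0 at an adjusted p under 0.05, and in FGFR4 KD mice it was 3 and then 0. Leaving out 1 library gave 0 to 2 members with KD on HFD, 0 to 2 with HFD in saline-injected mice, 1 to 4 with HFD in FGFR4 KD mice, and 0 to 1 for the difference. Library totals alone moved the median change of all genes by 0.28 with HFD in saline-injected mice and made 92.1% of calls higher, and by 0.15 and to 82.8% in FGFR4 KD mice. With them Dusp6 changed by 0.03 and Jun by 0.22 in saline-injected mice.

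No called member changed sign under any setting, and 35 values of members not called did. Jun with HFD in saline-injected mice was 0.09 by edgeR, 0.08 by DESeq2, 0.03 with quality weights and 0.01 with the block, Etv5 was -0.04 and Fos on chow was 0.15 with the block. Without the libraries that stood apart, Jun on chow was -0.04, Spry4 with HFD in FGFR4 KD mice -0.30, Fos there 0.03, and the Dusp6 difference 0.16. Spry4 there was -0.01 with 1 CPM in at least 4 libraries and -0.10 with quality weights. Over fits without 1 library, KD on chow gave -0.35 to 0.11 for Dusp6, -0.42 to 0.82 for Egr1, -1.08 to 0.28 for Fos, -0.04 to 0.35 for Jun and -0.36 to 0.04 for Spry4. HFD in saline-injected mice gave -0.25 to 0.28 for Etv5 and -0.39 to 0.14 for Jun, and HFD in FGFR4 KD mice -0.82 to 0.16 for Fos and -0.22 to 0.25 for Spry4. The difference gave -0.38 to 0.08 for Dusp6 and -0.04 to 1.20 for Egr1, and the mean over diets -0.36 to 0.09 for Etv5 and -0.07 to 0.61 for Fos. The cause of these changes was not tested. Depth limits Dusp4 and Spry2, neither of which was called where a looser filter or none admitted them.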

Other observations

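For each tested member, the 3 genes most alike were found by the group-centred Pearson r of log2 CPM over the 16 libraries, among 8328 or 8329 other genes with a mean of at least 5 CPM. With 16 libraries and this many genes the highest values are large by selection, so they are listed as a description. Fos was most like Egr1 (0.87), followed by Spg11 (0.86) and Btg2 (0.86), an antiproliferative early-response gene. Egr1 was most like Fuk (0.84), Btg2 (0.83) and Spg11 (0.83). Jun was most like Lnx2 (0.89) and Gdf15 (0.89), a stress-induced hormone, and then Ptpn21 (0.85). Dusp6 was most like Copg1 (0.85), Herc1 (0.83) and Igfbp1 (0.83), an insulin-repressed secreted protein of the liver. The nearest genes of Spred1 were Rc3h1 (0.86), Znrf2 (0.83) and Apex1 (0.82), and those of Spred2 were Rab3ip (0.88), Clmn (0.84) and Farp2 (0.84). Spry4 was most like Ifi27 (0.88), Mug1 (0.88) and Ankrd46 (0.87), and Etv5 like Urgcp (0.87), Fam92a (0.86) and Mtrex (0.82). None of these neighbours other than Egr1 was a member, and none was called with KD on HFD.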
